A study of Homo sapiens with 12 samples.

Results

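OSMR, the gp130 family of cytokine receptors and the JAK1, STAT3 and SOCS genes downstream of them were followed in A375 and SK-MEL-28, 2 established human melanoma lines, treated with etoposide alone or with etoposide + rapamycin. The genes are OSMR, IL6ST, LIFR, IL6R, JAK1, STAT3, SOCS2 and SOCS3, taken by their exact symbols from the count table, so that 8 of 58307 gene rows are described. OSMR was chosen from the measured values, since it is the only 1 of the 8 that the study lists as changed by rapamycin in both lines, and its response to rapamycin is therefore given as a description with no test. The other 7 genes were taken for their place in the same pathway, with earlier results of these data known. Each line and treatment has 3 polyA RNA-seq libraries, 12 in all, and every library received etoposide, a topoisomerase II poison. The comparison therefore shows what rapamycin, an mTORC1 inhibitor that the study used to induce autophagy, added to etoposide. The 4 groups are written here as A375 E, A375 E+R, SK-MEL-28 E and SK-MEL-28 E+R. The doses and times of the sequenced cultures are not given in the sources used here. The study describes the libraries of a group as biological replicates.

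The members of this family share 1 signalling subunit. IL6ST encodes gp130, which is brought together with a cytokine-specific chain when a ligand binds. OSMR is the chain that pairs with gp130 to form the receptor specific for oncostatin M, LIFR is the chain used by leukaemia inhibitory factor (LIF) and also by oncostatin M, and IL6R binds interleukin-6 and presents it to gp130. The paired receptors activate JAK1, which phosphorylates STAT3. STAT3 then switches on target genes that include SOCS3, whose protein binds gp130 and JAK1 and shuts the signal down. SOCS2 belongs to the same inhibitor family and is best known for restraining growth hormone and STAT5 signalling. Oncostatin M and interleukin-6 slow the growth of some melanoma cells, and advanced melanomas can lose that response.

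The libraries held 28189501 to 32499337 counts. Levels are given as CPM, counts scaled to a library size of 1e+06, with TMM factors over the 12 libraries, and all 8 genes passed the filter on low counts in every comparison, with 277 (SOCS3) to 10028 (IL6ST) counts per library. The melanocytic transcription factor gene SOX10 was at 166 to 579 CPM, MITF at 12.1 to 29.7 CPM and S100B at 56.8 to 106 CPM, whereas the pigment genes PMEL, MLANA, TYR, DCT and TYRP1 were at 2.99 CPM or less in every library of both lines. The labels of the lines were not checked by other means. With the pigment genes this low, the identity of the SK-MEL-28 cultures would need a separate check. Every comparison by line below rests on the labels. Of the melanocytic markers, MITF fell with rapamycin in both lines (log2 fold changes -0.51 and -0.50, adjusted p = 0.00248 and 0.0032 by edgeR's quasi-likelihood test) and S100B and DCT in A375 (-0.58 and -1.70, adjusted p = 4.13e-05 and 0.0106). The 4 leukocyte markers summed to at most 0.82 CPM, the 3 endothelial markers to 3.49-9.37 CPM and the 3 keratinocyte markers to 48.1-72.8 CPM, most of it KRT10. The 4 fibroblast markers summed to 13.5-16.9 CPM in A375 E and 8.51-9.46 CPM in A375 E+R, and to 25.4-32.5 and 16.3-19.6 CPM in SK-MEL-28, with COL1A2 at or near 0. Among them LUM fell in both lines (-0.73, adjusted p = 0.00502, and -0.66, adjusted p = 0.000806) and DCN in A375 (-0.63, adjusted p = 0.0172), and the endothelial marker PECAM1 fell in SK-MEL-28 (-0.70, adjusted p = 0.0488). The part of these markers in the results was not tested.

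OSMR lies on chromosome 5, at 38845858-38945596 on the plus strand (ENSG00000145623.13, GENCODE release 44, GRCh38), and LIFR lies 237503 bases before it on the minus strand (38474668-38608354). RefSeq promoter windows, which run from 250 bases before to 50 bases after a RefSeq gene start in GRCh38.p14, were at hand for 7 of the 8 genes, 12 windows in all. These starts can differ from the GENCODE starts, and motif positions are counted from the RefSeq start of the window. The general STAT motif TTCNNNGAA, read on both strands (its letters read the same on each), was in 2 of the 12 windows, both of LIFR, and in 7.66% of 35116 windows of all genes. The stricter form TTCCNGGAA was in 0 of the 12 and in 1.15% of all windows. No window covers the GENCODE start of SOCS3 (chr17:78360077) or of LIFR (chr5:38608354), so the bases around those starts were not searched. The 60 bases around both LIFR matches are shown because they are the only matches among the members, with the motif in capitals. The first is at chr5:38595537-38595596 on the minus strand, with the motif starting at -165 from the RefSeq start of its window. The second is at chr5:38557616-38557675 on the minus strand, with the motif at -182 from that of its own window. The LIFR window at chr5:38556597-38556896 held no match.
LIFR, first start: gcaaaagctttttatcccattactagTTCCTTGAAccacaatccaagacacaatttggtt
LIFR, second start: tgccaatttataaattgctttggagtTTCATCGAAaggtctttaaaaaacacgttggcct
The OSMR window is shown whole because OSMR is the gene that the description turns on (chr5:38845762-38846061, plus strand). It holds no TTCNNNGAA, and 1 match to the AP-1-like letters TGANTCA, searched after the window had been seen, which starts at +4 and is in capitals. That motif is in 7.71% of all windows.
OSMR: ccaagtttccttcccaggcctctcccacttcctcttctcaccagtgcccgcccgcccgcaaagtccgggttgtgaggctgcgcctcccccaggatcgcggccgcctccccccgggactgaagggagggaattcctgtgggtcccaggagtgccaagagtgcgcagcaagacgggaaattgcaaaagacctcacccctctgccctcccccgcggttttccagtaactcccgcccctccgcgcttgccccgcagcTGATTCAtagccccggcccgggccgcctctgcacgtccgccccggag

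OSMR was lower with rapamycin in both lines. Its levels in the A375 E libraries were 121, 120 and 122 CPM, and in the A375 E+R libraries 79.4, 79.2 and 78.9 CPM. In SK-MEL-28 the levels were 171, 155 and 167 CPM under E and 114, 93.1 and 100 CPM under E+R. The E+R libraries of each line all lay below its E libraries, and the replicates of A375 were closer to each other than those of SK-MEL-28. The log2 fold change was -0.61 (SE 0.043, 1.53-fold lower) in A375 and -0.68 (SE 0.071, 1.61-fold lower) in SK-MEL-28, a difference between the lines of -0.07 (SE 0.086). These values sit just past the fold change of 1.5 on which the gene was selected, and OSMR was the only member past it in A375. The members nearest to it on the other side were SOCS2 in A375 (1.37-fold higher) and LIFR in SK-MEL-28 (1.28-fold lower). The last 7677 bases of OSMR overlap RICTOR on the opposite strand, and the strand used for counting is not given in the sources used here. RICTOR, an mTORC2 subunit gene, was at 58.2 ± 4.28 CPM in A375 E and 52.7 ± 3.57 in A375 E+R, and at 50.7 ± 2.82 and 50.8 ± 2.68 CPM in SK-MEL-28 (mean ± SD, n = 3). The antisense gene OSMR-AS1 had 12 to 30 counts per library.

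**Figure D1:**
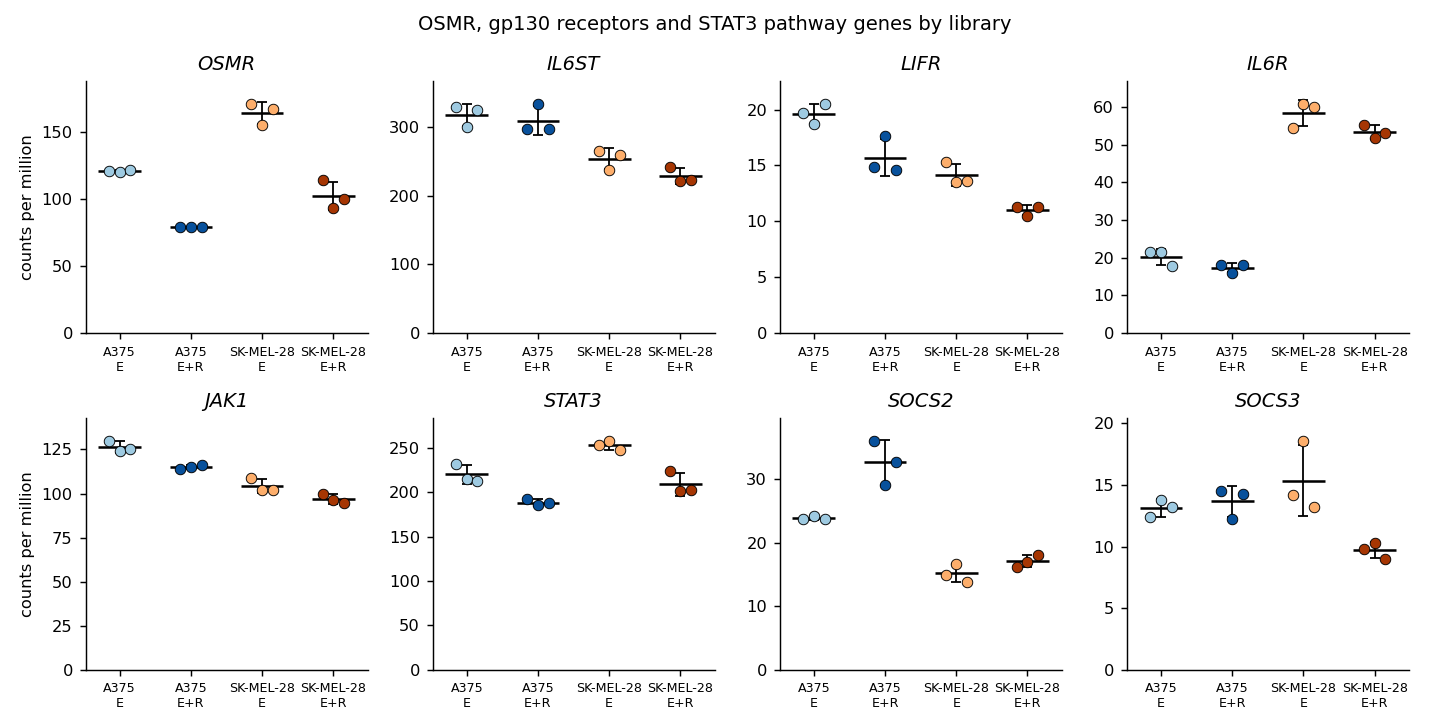
Levels of the 8 genes in every library (y axes, CPM, from 0); E is etoposide and E+R etoposide + rapamycin. Points are libraries (n = 3 per group), horizontal bars are means and whiskers SD. The 3 E+R points of OSMR and of STAT3 lie below the 3 E points in both lines, and the A375 E+R points of SOCS2 lie above the A375 E points.

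Of the receptor members besides OSMR, LIFR fell in both lines, and IL6ST and IL6R passed the test in neither. IL6ST, the shared gp130 subunit, was at 329, 300 and 325 CPM in A375 E and at 297, 334 and 298 CPM in A375 E+R. In SK-MEL-28 it was at 266, 237 and 259 CPM under E and 242, 221 and 223 CPM under E+R. The groups overlapped in both lines. The log2 fold changes were -0.03 (SE 0.056, 95% interval -0.16 to 0.09, adjusted p = 0.701) and -0.15 (SE 0.059, -0.28 to -0.03, adjusted p = 0.0892). Every adjusted p comes from the quasi-likelihood test of edgeR and was adjusted by Benjamini-Hochberg over the whole table of tested genes. The SK-MEL-28 value passed 0.05 with DESeq2 (adjusted p = 0.0356), with library totals (0.0401) and without E replicate 2 (0.0437).

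LIFR levels were 19.7, 18.7 and 20.5 CPM in A375 E and 14.9, 17.6 and 14.6 CPM in A375 E+R. In SK-MEL-28 they were 15.3, 13.5 and 13.6 CPM under E and 11.3, 10.5 and 11.3 CPM under E+R. The groups did not overlap in either line. The log2 fold change was -0.32 (SE 0.098, 1.25-fold lower, adjusted p = 0.0282) in A375 and -0.36 (SE 0.1, 1.28-fold lower, adjusted p = 0.0239) in SK-MEL-28, with a difference between the lines of -0.03 (95% interval -0.31 to 0.25, adjusted p = 0.93). Both calls were close to the threshold. In A375 the adjusted p was 0.0982 without E+R replicate 1, 0.108 without E+R replicate 3, 0.0562 without E replicate 1 and 0.0949 without E replicate 3. In SK-MEL-28 it was 0.0862 without E+R replicate 2, 0.0595 without E+R replicate 3, 0.0917 without E replicate 1 and 0.0535 without E replicate 3. When genes with 1 count in any library were tested as well, both calls were lost, the adjusted p being 0.0723 for A375 and 0.055 for SK-MEL-28. The overlapping antisense gene LIFR-AS1 had 24 to 52 counts per library, against 294 to 601 for LIFR.

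IL6R did not pass the test in either line. Its levels were 21.4, 21.5 and 17.8 CPM in A375 E, 18.1, 16 and 18 CPM in A375 E+R, 54.4, 60.8 and 59.9 CPM in SK-MEL-28 E and 55.2, 51.7 and 53.2 CPM in SK-MEL-28 E+R. The lowest E library of each line lay inside the range of its E+R libraries. The log2 fold changes were -0.22 (SE 0.1, adjusted p = 0.13) and -0.13 (SE 0.059, adjusted p = 0.141). They passed only without A375 E replicate 3 (adjusted p = 0.0496) and without SK-MEL-28 E replicate 1 (adjusted p = 0.0467).

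The receptor genes differ in length, so their levels were compared per kilobase of merged exons (CPM per kb). On that scale A375 E held 26.4 ± 1.32 of IL6ST, 16.9 ± 0.148 of OSMR, 2.89 ± 0.301 of IL6R and 1.61 ± 0.0748 of LIFR (mean ± SD, n = 3). SK-MEL-28 E held 21 ± 1.27 of IL6ST, 22.9 ± 1.11 of OSMR, 8.35 ± 0.496 of IL6R and 1.16 ± 0.0801 of LIFR. IL6ST thus led in A375, OSMR in each SK-MEL-28 E library, and IL6R and LIFR followed in both lines. No test between genes was run, and the order depends on the merged exon lengths used (12.06 kb for IL6ST and 7.174 kb for OSMR). The ratio of IL6ST to OSMR per length was 1.48-1.61 in the A375 E libraries and 2.22-2.51 in the A375 E+R libraries, and 0.907-0.929 and 1.27-1.41 in SK-MEL-28. OSMR made up 35.4% ± 0.796 of the summed per length level of the 4 receptors in A375 E and 27.3% ± 1.12 in A375 E+R, and 42.8% ± 0.478 and 34.1% ± 1.29 in SK-MEL-28. The ratio of OSMR to LIFR was 10.5 ± 0.396 and 8.62 ± 0.862 in A375, while SK-MEL-28 had 19.7 ± 0.91 and 15.7 ± 1.16. These shares and ratios rest on the same OSMR values and are a description.

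**Figure D2:**
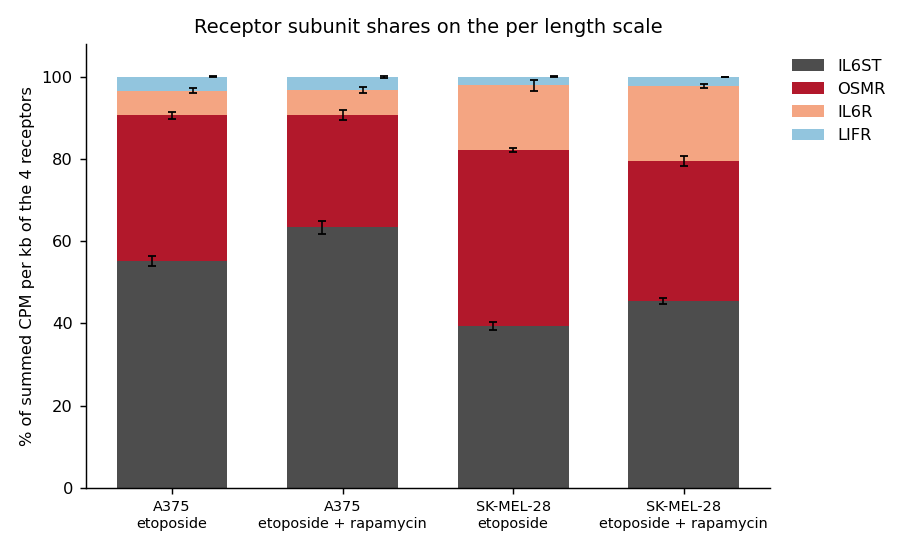
Share of each receptor gene in the summed CPM per kilobase of IL6ST, OSMR, IL6R and LIFR (y axis, %), by line and treatment. Bars are means of 3 libraries and the whisker at the top of each segment is the SD of that gene's share; the OSMR segment is shorter with rapamycin in both lines, 27.3% against 35.4% in A375 and 34.1% against 42.8% in SK-MEL-28.

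Of the signalling genes, STAT3 fell in both lines and JAK1 passed the test in A375 alone. STAT3 was at 232, 215 and 213 CPM in A375 E and at 192, 185 and 188 CPM in A375 E+R. In SK-MEL-28 it was at 253, 258 and 248 CPM under E and 224, 201 and 202 CPM under E+R. No E+R library reached the level of an E library of the same line. The log2 fold change was -0.22 (SE 0.047, 1.16-fold lower, adjusted p = 0.00452) in A375 and -0.28 (SE 0.055, 1.21-fold lower, adjusted p = 0.00334) in SK-MEL-28. Over 13 alternatives in each line, which include leaving out each library, STAT3 stayed past the threshold, with adjusted p up to 0.0272 in A375 and up to 0.022 in SK-MEL-28. The responses of the lines differed by -0.05 (95% interval -0.20 to 0.09, adjusted p = 0.731).

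JAK1, the kinase bound to gp130 receptors, was at 130, 124 and 125 CPM in A375 E and 114, 115 and 116 CPM in A375 E+R. In SK-MEL-28 it was at 109, 102 and 102 CPM under E and 99.8, 96.3 and 94.7 CPM under E+R. The groups did not overlap in either line, but the changes were small. The log2 fold change was -0.13 (SE 0.043, adjusted p = 0.0351) in A375 and -0.11 (SE 0.051, adjusted p = 0.158) in SK-MEL-28, a difference of 0.03 (adjusted p = 0.837). The A375 call did not survive the loss of any library: the adjusted p was 0.13, 0.0919 and 0.0896 without E+R replicates 1, 2 and 3, and 0.0659, 0.0534 and 0.0742 without E replicates 1, 2 and 3.

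The inhibitors SOCS2 and SOCS3 each passed the test in 1 line. SOCS2 rose in A375, from 23.8, 24.3 and 23.7 CPM under E to 36.1, 29.1 and 32.8 CPM under E+R, a log2 fold change of 0.45 (SE 0.086, 1.37-fold higher, adjusted p = 0.00188). All 3 E+R libraries lay above the E libraries. In SK-MEL-28 it was at 14.9, 16.7 and 13.9 CPM under E and 16.2, 17 and 18.1 CPM under E+R, with overlapping groups and a log2 fold change of 0.17 (SE 0.099, adjusted p = 0.261). The difference between the lines was -0.27 (adjusted p = 0.244), so a difference in response was not shown. SOCS2 shares 1955 bases with SOCS2-AS1 on the opposite strand. SOCS2-AS1, named here after its values were seen, had 28 to 101 counts per library, with a log2 fold change of 0.88 (SE 0.19, adjusted p = 0.00489) in A375 and -0.63 (SE 0.28, adjusted p = 0.14) in SK-MEL-28, and a difference of -1.50 (SE 0.33, adjusted p = 0.014). Without strand, reads of the shared stretch cannot be told apart, and SOCS2 had 455 to 1031 counts in the same libraries.

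SOCS3, the STAT3-induced inhibitor of gp130, fell in SK-MEL-28. Its levels there were 14.2, 18.6 and 13.2 CPM under E and 9.81, 10.3 and 9 CPM under E+R, with no overlap and with E replicate 2 well above the other E libraries. The log2 fold change was -0.66 (SE 0.13, 1.58-fold lower, adjusted p = 0.00376). Without E replicate 2 it was -0.50, short of the fold change of 1.5, and the adjusted p over the 13 alternatives reached at most 0.0213. In A375 SOCS3 was at 12.4, 13.8 and 13.2 CPM under E and 14.5, 12.2 and 14.3 CPM under E+R, with overlapping groups and a log2 fold change of 0.07 (SE 0.1, adjusted p = 0.683). The responses differed between the lines by -0.72 (SE 0.17, 95% interval -1.08 to -0.35, adjusted p = 0.0226), which made SOCS3 the only member with such a call. That call was lost without A375 E+R replicate 1 (adjusted p = 0.0582), A375 E+R replicate 3 (0.0663), A375 E replicate 3 (0.0512), SK-MEL-28 E+R replicate 3 (0.0592) or SK-MEL-28 E replicate 2 (0.0553), while its direction stayed the same, from -0.56 to -0.81 over 18 alternatives.

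OSMR was selected on its fall in both lines and is left out of the counts over the rapamycin responses. Of the other 7 genes, 1 rose (SOCS2) and 3 fell (LIFR, JAK1 and STAT3) past the adjusted p of 0.05 in A375, where 14.3% of all 18844 genes tested were higher and 13.8% lower. In SK-MEL-28, 0 rose and 3 fell (LIFR, STAT3 and SOCS3), where 8.83% of 18897 genes were higher and 10.1% lower. With the fold change of 1.5 as well, 0 of the 7 were called in A375 (5.89% of all genes) and 1, SOCS3, in SK-MEL-28 (4.99%). The groups did not overlap for 4 of the 7 in each line, against 42.6% of all genes for A375 and 35.9% for SK-MEL-28. The median log2 fold change of the 7 was -0.13 for A375 and -0.15 for SK-MEL-28, beside -0.005 and 0.005 over all genes tested. For the difference between the lines, 0 members were higher and 1 lower, where 2.66% of 20101 genes were higher and 2.97% lower. Leaving out 1 library left 2 or 3 of the 7 past the adjusted p in A375 (2 without E+R replicate 1, E+R replicate 3 or E replicate 1) and 2 to 4 in SK-MEL-28 (2 without E+R replicate 2, E+R replicate 3 or E replicate 3).

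**Figure D3:**
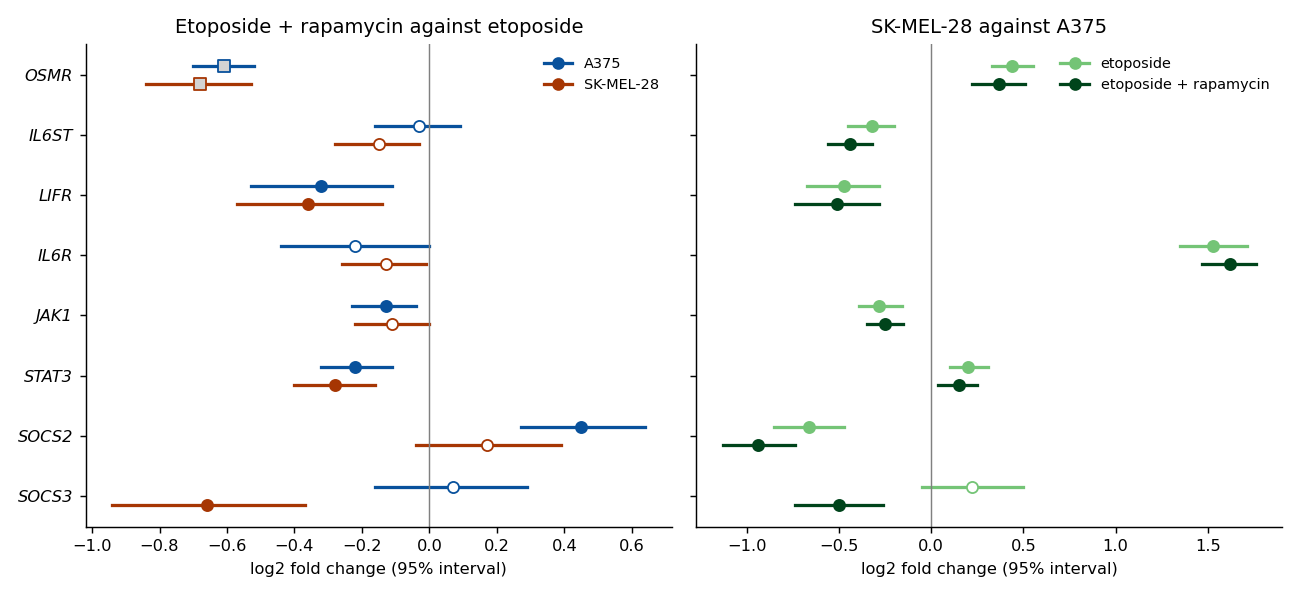
Log2 fold changes (x axis) of the 8 genes with 95% intervals, for etoposide + rapamycin against etoposide in each line (left) and for SK-MEL-28 against A375 under each treatment (right), n = 3 libraries per group. Filled circles have an adjusted p under 0.05 by edgeR's quasi-likelihood test, open circles do not, and grey squares are OSMR values given without a test; the SOCS3 intervals of the lines on the left, and of the treatments on the right, do not overlap.

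The lines themselves differed in most of these genes, whatever the treatment. IL6R showed the greatest difference of the 8: SK-MEL-28 held 2.88 times as much as A375 under E (log2 fold change 1.53, SE 0.085, adjusted p = 2.35e-08) and 3.07 times as much under E+R (1.62, SE 0.068, adjusted p = 7.52e-10). OSMR was also higher in SK-MEL-28, by 0.44 under E (SE 0.052, adjusted p = 2.9e-05) and 0.37 under E+R (SE 0.066, adjusted p = 0.000578), both on the log2 scale. STAT3 was higher by 0.20 under E (SE 0.05, adjusted p = 0.00713) and by 0.15 under E+R (SE 0.05, adjusted p = 0.0326). The latter call was lost without A375 E+R replicate 1 (adjusted p = 0.0604), 2 (0.118) or 3 (0.0827) and without SK-MEL-28 E+R replicate 1 (0.13).

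The shared subunit gene IL6ST and the receptor gene LIFR were lower in SK-MEL-28. IL6ST differed by -0.32 under E (SE 0.057, adjusted p = 0.000757) and -0.44 under E+R (SE 0.056, adjusted p = 3.35e-05). LIFR differed by -0.47 (SE 0.09, adjusted p = 0.00139) and -0.51 (SE 0.11, adjusted p = 0.00188), and JAK1 by -0.28 (SE 0.052, adjusted p = 0.00122) and -0.25 (SE 0.045, adjusted p = 0.000616). SOCS2 was lower in SK-MEL-28 by 1.58 times under E (-0.66, SE 0.088, adjusted p = 8.66e-05) and 1.91 times under E+R (-0.94, SE 0.09, adjusted p = 2.55e-06). SOCS3 alone was on different sides under the different treatments, at 0.22 under E (SE 0.13, adjusted p = 0.204) and -0.50 under E+R (SE 0.11, adjusted p = 0.00279). In all, 3 members were higher and 4 lower in SK-MEL-28 under E, where 15.2% of 19025 genes were higher and 16.5% lower, and 3 were higher and 5 lower under E+R, where 19.8% of 18817 genes were higher and 20.5% lower. IL6R and SOCS2 also passed the fold change of 1.5 under both treatments, beside 13% of all genes under E and 14.9% under E+R. The groups did not overlap for 7 members under E and 8 under E+R, against 44.6% and 51.2% of all genes. Each line was sequenced from its own cultures, so line and culture cannot be told apart.

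LIF had the highest level per length of the ligands, at 78.3 CPM per kb in A375 E and 32.2 in SK-MEL-28 E. IL11, which signals through gp130 and its own receptor chain, was at 31.6 and 7.66 CPM per kb, and passed the test in neither line (log2 fold changes 0.09 and -0.25, adjusted p = 0.202 and 0.116). OSM, the oncostatin M gene, had 0 to 12 counts per library and was not tested, as was the case for CTF1, IL27 and IL31, so that 7 of 11 ligand genes were tested. In A375, 2 ligands rose and 1 fell, and in SK-MEL-28, 1 rose and 1 fell. For these and the following counts, the shares over all genes are 14.3% higher and 13.8% lower in A375, and 8.83% higher and 10.1% lower in SK-MEL-28. CLCF1, a ligand of the gp130 family, rose in A375 from 41.7-44.4 to 71.5-80.5 CPM (log2 fold change 0.83, SE 0.058, adjusted p = 1.09e-06). In SK-MEL-28 its change was 0.32 (SE 0.094, adjusted p = 0.0321), less than in A375 by 0.51 (difference -0.51, SE 0.1, adjusted p = 0.00706). EBI3, a subunit of interleukin-27, fell in SK-MEL-28 from 15.7-19.2 to 9.9-11.2 CPM (-0.70, SE 0.11, adjusted p = 0.000579) and had -0.03 (adjusted p = 0.755) in A375, a difference of -0.66 (adjusted p = 0.00297). LIF, the ligand of LIFR, was at 303 ± 23.8 CPM in A375 E and 347 ± 22.5 in A375 E+R (0.20, adjusted p = 0.0306), and at 124 ± 11.9 and 134 ± 1.95 CPM in SK-MEL-28 (0.10, adjusted p = 0.327). SK-MEL-28 had less LIF than A375, the log2 difference being -1.28 under E (adjusted p = 3.66e-08) and -1.38 under E+R (adjusted p = 1.86e-10). CNTF, at 1.78 to 6.88 CPM, fell by 0.82 in A375 (adjusted p = 0.0344) and had -0.49 (adjusted p = 0.127) in SK-MEL-28. Several of these calls were close to the threshold and were lost with 1 library left out. The LIF call in A375 was lost without E+R replicate 1 (adjusted p = 0.144) or E replicate 3 (0.125). The CNTF call was lost without E+R replicate 1 (0.057) or 2 (0.0752) or E replicate 2 (0.0597) or 3 (0.126). The CLCF1 call in SK-MEL-28 was lost without E+R replicate 1 (0.109) or 3 (0.0906) or E replicate 1 (0.0869), 2 (0.0678) or 3 (0.0979).

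Among the other receptor, kinase and STAT genes no gene that passed the test changed by more than 1.5-fold. Of 4 other receptor genes 3 were tested, and CNTFR, with 0 to 7 counts per library, was not. IL27RA, the interleukin-27 receptor chain, rose in A375 (57.5-62.2 to 67.6-74.8 CPM, log2 fold change 0.25, adjusted p = 0.00587) while none of these receptor genes passed in SK-MEL-28. TYK2, a kinase of the JAK family, rose in A375 from 128-146 to 176-203 CPM (0.43, SE 0.064, adjusted p = 0.000361) and had 0.11 (adjusted p = 0.128) in SK-MEL-28, a difference of -0.31 (adjusted p = 0.0309). The call for that difference was lost without A375 E+R replicate 1 (0.0566) or 3 (0.0969), A375 E replicate 3 (0.0815), SK-MEL-28 E+R replicate 2 (0.0681) or 3 (0.0633) or SK-MEL-28 E replicate 2 (0.0708) or 3 (0.0705). The remaining calls, named after their values were seen, were all STAT genes. STAT5A rose by 0.21 in A375 (adjusted p = 0.0168) and 0.32 in SK-MEL-28 (adjusted p = 0.00937), and STAT5B by 0.19 (adjusted p = 0.0214) and 0.25 (adjusted p = 0.016), each against the direction of STAT3, whose annotated end lies 1380 bases from that of STAT5A on chromosome 17. STAT2 fell by 0.21 in A375 (adjusted p = 0.0276). Of the kinase and STAT genes described here, 3 rose and 1 fell of 7 tested in A375, and 2 rose and 0 fell of 8 tested in SK-MEL-28. STAT5A and STAT5B are close paralogs whose annotated spans share 1087 bases, so their reads may not be fully separated. Leaving out 1 library gave 2 to 4 calls in A375 (2 when any 1 of the A375 libraries other than E replicate 1 was left out) and 1 or 2 in SK-MEL-28 (1 without E+R replicate 1 or E replicate 3). The A375 calls were lost for STAT5A without E+R replicate 1 (adjusted p = 0.0656) or 3 (0.0587) or E replicate 3 (0.0758), for STAT5B without E+R replicate 1 (0.0618) or 2 (0.0892) or E replicate 2 (0.0581) or 3 (0.0577), and for STAT2 without E+R replicate 2 (0.098) or 3 (0.0914) or E replicate 1 (0.0693) or 2 (0.11). In SK-MEL-28 the call for STAT5B was lost without E+R replicate 1 (0.0644) or E replicate 3 (0.0643).

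Of the other inhibitors, 1 rose and 5 fell of 14 tested in A375, and 0 rose and 4 fell of 15 tested in SK-MEL-28 (over all genes 14.3% and 13.8%, and 8.83% and 10.1%). Their median log2 fold change was -0.18 for A375 and -0.10 for SK-MEL-28. PTPRE, a receptor-type tyrosine phosphatase, fell in both lines, from 13.8-16.2 to 9.15-10.5 CPM in A375 (-0.61, SE 0.1, adjusted p = 0.000944) and from 10.2-10.8 to 6.26-7.86 CPM in SK-MEL-28 (-0.55, SE 0.12, adjusted p = 0.00605). PTPN11, the phosphatase SHP2 and the inhibitor with the highest CPM, had -0.10 in each line (adjusted p = 0.134 and 0.18). Leaving out 1 library gave 3 to 6 calls in A375 (3 without E+R replicate 1 or E replicate 3) and 2 or 3 in SK-MEL-28 (2 without any of E+R replicates 2 and 3 or E replicates 1, 2 and 3).

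Known STAT3 target genes did not share 1 direction. In A375, 4 rose and 8 fell of 19 tested (median 0.07), and in SK-MEL-28, 4 rose and 6 fell of 20 (median -0.05), beside the same shares over all genes. SERPINA3, an acute phase protease inhibitor, fell in both lines, from 301-341 to 119-126 CPM in A375 (-1.39, SE 0.053, adjusted p = 1.57e-08) and from 527-603 to 206-306 CPM in SK-MEL-28 (-1.23, SE 0.12, adjusted p = 1.54e-05). NNMT, nicotinamide N-methyltransferase, fell by 1.52 in A375 (SE 0.093, adjusted p = 4.99e-07) and by 0.50 in SK-MEL-28 (SE 0.052, adjusted p = 2.86e-05), a difference of 1.03 (SE 0.092, adjusted p = 7.89e-06). MUC1 fell in SK-MEL-28 from 10.7-12.6 to 6.54-8.19 CPM (-0.63, adjusted p = 0.00335) and had -0.02 (adjusted p = 0.906) in A375, a difference of -0.59 (adjusted p = 0.0414). That difference lost its call when any 1 library other than SK-MEL-28 E+R replicate 3 or E replicate 1 was left out, with adjusted p from 0.0529 to 0.113. TIMP1, a metalloproteinase inhibitor and the target with the highest CPM, fell by 0.23 in A375 (adjusted p = 0.00213) and had -0.04 (adjusted p = 0.736) in SK-MEL-28. IRF1, an interferon-response transcription factor, rose in both, by 0.66 (adjusted p = 1.35e-05) and 0.37 (adjusted p = 0.00694), and JUNB, an AP-1 subunit named after its values were seen, by 0.56 (adjusted p = 1.34e-05) and 0.34 (adjusted p = 0.00594). The kinase gene PIM1, at 1.85 to 9.73 CPM, rose by 0.57 (adjusted p = 0.0162) and 0.87 (adjusted p = 0.0228). Its calls were lost in A375 without E+R replicate 1 (0.0689) or 2 (0.0568) or E replicate 1 (0.0528) or 2 (0.063), and in SK-MEL-28 without E+R replicate 2 (0.0553) or 3 (0.0844) or E replicate 2 (0.0763) or 3 (0.0737). CCND1, the cyclin D1 gene, named after its values were seen, moved in opposite directions, falling by 0.13 in A375 (1133 ± 21.5 to 1032 ± 14.2 CPM, adjusted p = 0.0246) and rising by 0.27 in SK-MEL-28 (937 ± 16.9 to 1131 ± 21.1 CPM, adjusted p = 0.000387), a difference of 0.41 (adjusted p = 0.000137). Its A375 call was lost without E+R replicate 1 (0.0715), 2 (0.114) or 3 (0.0519) or E replicate 2 (0.0731).

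**Figure D4:**
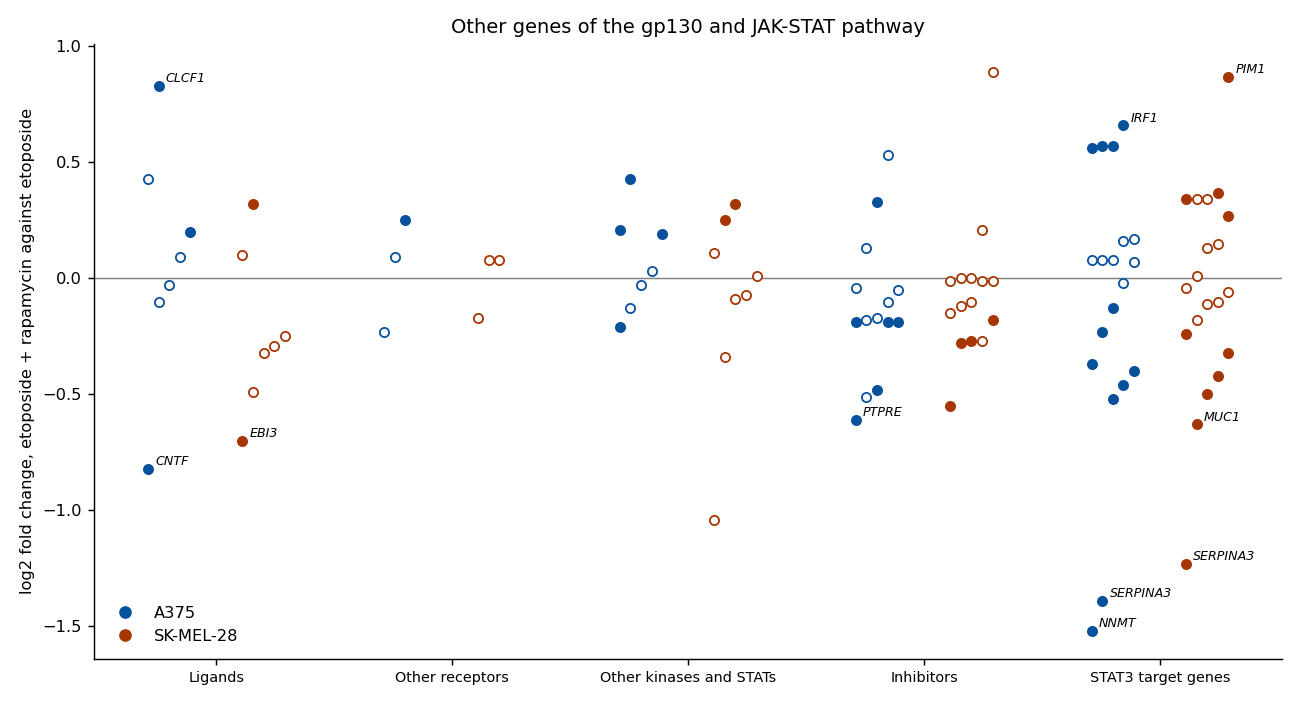
Log2 fold changes of the other pathway genes, etoposide + rapamycin against etoposide (y axis), by list (x axis) and line, 1 point per gene tested, n = 3 libraries per group. Filled points have an adjusted p under 0.05 by edgeR's quasi-likelihood test and open points do not; names mark genes of the naming rule that also passed a fold change of 1.5, and SERPINA3 lies near the bottom in both lines (-1.39 and -1.23).

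The genes whose pattern was most like that of OSMR were sought by Pearson's r of log2 CPM over the 12 libraries, each less the mean of its line, among 12317 other genes. Among the top 5 were ENPP2 (r = 0.992), which encodes autotaxin, LOXL4 (0.991), a lysyl oxidase, and the endoplasmic reticulum chaperones HSP90B1 (0.991) and HSPA5 (0.988). Their log2 fold changes, which a likeness to OSMR largely fixes, ran from -0.45 to -1.19 in A375 and from -0.56 to -1.48 in SK-MEL-28. Of the other members, STAT3 had r = 0.954 (rank 166), LIFR 0.918 (rank 445) and JAK1 0.917 (rank 451), while IL6R had 0.677, IL6ST 0.65, SOCS3 0.541 and SOCS2 -0.81. The libraries share the same treatment contrast, which alone gives a high r to any gene that changes evenly in both lines, so these values only describe the order.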

How the data were processed

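PolyA-enriched RNA of A375 and SK-MEL-28 cells was sequenced by the authors, 3 libraries per line and treatment. Per the study's methods, clean reads were aligned to GRCh38 with HISAT 2.2.0, converted with Samtools 1.3.1 and quantified with StringTie 2.1.4 on Ensembl 90 gene models. The authors deposited raw counts per gene and library, not normalized and not pooled. Of 58312 rows, 5 name no gene (0.000991% to 0.00529% of a library's counts) and were left out. Another 1892 rows share a name, and the row with the highest mean was used for a named gene. StringTie derives counts from coverage, so a count is not exactly 1 read, and replicate spread gives the precision.

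Genes were tested in R 4.3.3 by edgeR 4.0.16 (TMM, filterByExpr at 10, quasi-likelihood fit), over all genes, with Benjamini-Hochberg adjustment; each line was fitted alone, each treatment alone for the line comparison, and all 12 libraries for the difference in response. "Rose" and "fell" mean an adjusted p under 0.05, and the fold change of 1.5 is the study's second threshold. The SE was obtained from the log2 fold change and the F statistic. CPM values in the text use TMM factors over the 12 libraries. The fitting code was run on simulated data with the same spread for every gene. That run checks the code and not the results given here. Lengths are merged exons of GENCODE release 44, matched by identifier or symbol, and promoters are from RefSeq.

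The members and lists were chosen with earlier results of these data known. Named genes beyond the 8 are list genes past both thresholds in either line, the most abundant gene of each list and the 5 genes most like OSMR; exceptions are stated. A gene of the kinase and STAT list and a gene like OSMR are not reported here, and the former is in no count of its list. Alternatives were DESeq2 1.42.0, other normalizations and filters, 1 fit of all libraries, a replicate block and each library left out. Replicates did not agree within sampling noise (chi-square per gene 5.15 to 10.5), so none was counted as a repeat.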

Additional observations from a re-analysis of the deposited data

Results flagged for a closer look

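A difference in the rapamycin response between the lines, tested by the interaction term of edgeR's quasi-likelihood fit over 12 libraries, was found for 1 member. SOCS3 had a difference of -0.72 on the log2 scale (adjusted p = 0.0226). Its level was lower in 3 of 3 SK-MEL-28 E+R libraries than in any E library of that line. The call was lost in 5 of 18 alternatives, each with 1 library left out, with adjusted p up to 0.0663.

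Of the other genes named, CLCF1 had a difference of -0.51 (adjusted p = 0.00706), EBI3 -0.66 (0.00297) and NNMT 1.03 (7.89e-06), and these stayed past the threshold under the 18 alternatives run for each. CCND1 had 0.41 (0.000137) and SOCS2-AS1 -1.50 (0.014), and both also stayed past it wherever an adjusted p was given. MUC1 had -0.59 (0.0414), lost in 12 alternatives with adjusted p up to 0.113, and TYK2 -0.31 (0.0309), lost in 9 with adjusted p up to 0.0969. These differences were not weighed against any explanation.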

How the results depend on the processing

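Over all alternatives for the 8 members, 506 values kept their direction and side of the threshold, 29 lost and 5 gained a call, and 4 turned direction. The latter were differences between the lines near 0: with 1 library left out, LIFR ranged from -0.081 to 0.061 and JAK1 from -0.0012 to 0.065. Of the other named genes, 3 values turned with 1 library left out: MUC1 in A375 (range -0.053 to 0.029), TIMP1 in SK-MEL-28 (-0.10 to 0.01) and CNTF between the lines under etoposide + rapamycin (-0.15 to 0.40).

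Without the fold change threshold, 5295 genes were called in A375 and 3582 in SK-MEL-28 for rapamycin (1109 and 943 with it). Between the lines, 6037 of 19025 genes were called under etoposide and 7597 of 18817 under etoposide + rapamycin (2477 and 2813 with it), with 7 and 8 members among them. Leaving OSMR out, 1 member rose and 3 fell past the adjusted p in A375 (14.3% and 13.8% of all genes). In SK-MEL-28, 0 rose and 3 fell (8.83% and 10.1%). In A375, LIFR and JAK1 lost their calls when 1 count in any library sufficed and with the replicate block. With 1 library left out, 2 or 3 of the 7 members other than OSMR passed in A375. The cause of these losses was not tested. Of the members other than OSMR, SOCS3 alone was past both thresholds in SK-MEL-28, where 4.99% of all genes were. Without E replicate 2 it fell short of the fold change of 1.5. Members with a difference between the lines numbered 0 or 1 with 1 library left out (2.66% of all genes higher and 2.97% lower in the main fit). The difference between the lines was called for 1130 genes, for 1738 with DESeq2, 658 with the filter of 1 count, 620 with the replicate block, and 594 to 1315 with 1 library left out. Same-numbered libraries did not deviate together (correlations -0.0298 to 0.0209, and not every library correlated best with its own number). A pairing by number was thus not seen, which does not show that there was none, and the main fits used none. With the replicate block the adjusted p in A375 was 0.0536 for LIFR and 0.0959 for JAK1, and no other member's call changed. Of the other named genes, CCND1 (0.076) and STAT5B (0.0563) in A375, CLCF1 in SK-MEL-28 (0.0547) and the differences for MUC1 (0.105) and TYK2 (0.0964) lost their calls with it, and the ligands past the adjusted p in SK-MEL-28 numbered 1. For the line comparisons a block of the number shared across lines was added after the data were seen. When 1 count in any library sufficed, LIFR and JAK1 lost their A375 calls (edgeR adjusted p = 0.0723 each). LIFR in SK-MEL-28 (0.055) and STAT3 between the lines under etoposide + rapamycin (0.0752) lost theirs as well. Of the other named genes, this filter cost the A375 calls of CNTF (0.127), LIF (0.0976), PIM1 (0.0595) and STAT2 (0.0924). It also cost those of CLCF1 (0.0648) and PIM1 (0.0708) in SK-MEL-28. The differences for MUC1 (0.0914) and TYK2 (0.0595) were lost too. With library totals, calls were lost for LIF (0.0758) and STAT5B (0.0718) in A375 and CLCF1 (0.0505) in SK-MEL-28. The spread of 3 libraries per group limits which small changes can be shown.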
